A study of Mus musculus with 8 samples.

Results

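Gene expression in muscle fibers of the extensor digitorum longus (EDL), a fast muscle of the mouse hind leg, was compared between postnatal day 7 (P7) and postnatal day 3 (P3). The comparison rests on 4 of the 8 arrays of the series, the 2 labelled P7 and the 2 labelled P3, which were chosen by these age labels and fitted without the older groups. Every animal was wild-type, and the labels name no treatment. The other 4 arrays, from adult mice of 3 to 4 months and aged mice of 24 to 25 months, serve here only to place the levels of genes that differed between the pup ages. Per the labels' protocols, the EDL was dissociated in collagenase for 90 minutes and the fibers were rinsed free of other cells before RNA was taken, and 1 ng of total RNA went onto each array. The arrays are called biological replicates, but the source label of the pup arrays speaks of pups in the plural. How many pups an array holds is not stated, and p-values measure only the spread between these arrays.

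Fibers of a newborn mouse still build their contractile apparatus largely from the embryonic and neonatal myosin heavy chains, and each is contacted by several motor axons. In the days after birth the fibers of a fast muscle take up the adult fast myosins, lose surplus nerve endings and exchange the fetal gamma subunit of the acetylcholine receptor for the adult epsilon subunit. Mature fast fibers are further known for parvalbumin, a calcium buffer that speeds relaxation, and for a high content of glycolytic enzymes.

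Levels are given as log2 of the deposited intensity, and a difference of 1 is a doubling. The median intensity of the 4 pup arrays lay between 66.4 and 71.9. Across all probe sets the replicates correlated with r = 0.976 at P3 and 0.982 at P7, and arrays of different age with r = 0.974 to 0.982, so the ages overlapped on this measure. Muscle fiber RNA was abundant, since skeletal actin Acta1 stood at 14.14 to 14.22 and muscle creatine kinase Ckm at 13.83 to 13.89 on the 4 arrays. These levels do not show whether the fibers were free of other cells, whose markers are given below. Xist, the RNA of the inactive X chromosome (10.97 to 11.13), and the Y-linked Eif2s3y (7.04 to 7.94) were both measured on all 4 arrays. On the older arrays Eif2s3y was at 3.56 to 3.98, except for 8.83 on Adult replicate 2. Every pup array thus carried transcripts of both sexes.

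The comparison of P7 with P3 addressed what changes in EDL fibers over these days. The fast myosins Myh4 and Myh1, parvalbumin, the sorting receptor Sorl1, the potassium channel Kcnj2 and the type I collagen genes Col1a1 and Col1a2 rose, whereas the potassium channel subunit Kcnf1 and the methyltransferase Mettl21e fell. Of the 11281 genes tested, 44 rose and 2 fell at an adjusted p under 0.05 (limma, Benjamini-Hochberg over all genes), that is 0.390% and 0.0177%, or 0.408% together. At an unadjusted p under 0.05 there were 766 higher genes (6.79%) and 249 lower genes (2.21%), and the median difference of all genes was 0.04. Both P7 arrays lay above both P3 arrays for 23.1% of genes and below them for 15.6%. Of the 44 that rose, 18 lay above the array median on all 4 arrays, 7 on both P7 arrays and 1 P3 array, and 19 on the P7 arrays only. These 19, among them Acan, Aldh1a1, Cpxm2, Cpz, Egfl6, Ereg, Pmp2, Siae and Slc25a35, were tested because they were high at P7. Their direction was therefore partly set by the filter. The same holds in the other direction for Mettl21e, 1 of the 2 that fell, which lay above the median on the P3 arrays only.

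The number that passed moved with the scaling and with single arrays, while all 46 genes kept their direction in all 15 alternative settings that included them. Equal means of the 13 housekeeping genes left 12 genes (10 higher, 2 lower): Acan, Col1a1, Col1a2, Cpxm2, Cpz, Dcn, Ereg, Kcnf1, Mettl21e, Myh1, Myh4 and Sorl1. The setting named equal array medians gave the tested genes the same median on each array. It differs from the array median of the filter, which is taken over all probe sets. With equal array medians limma called 0 (lowest adjusted p = 0.059), and 562 genes were higher and 419 lower at an unadjusted p under 0.05. A fit of all 8 arrays, whose error holds the spread of the older groups too, called 0 by limma, with 630 genes at an unadjusted p under 0.05. Without P3 replicate 1 the count was 243, without P3 replicate 2 it was 331, without P7 replicate 2 it was 110 and without P7 replicate 1 it was 62.

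**Figure D1:**
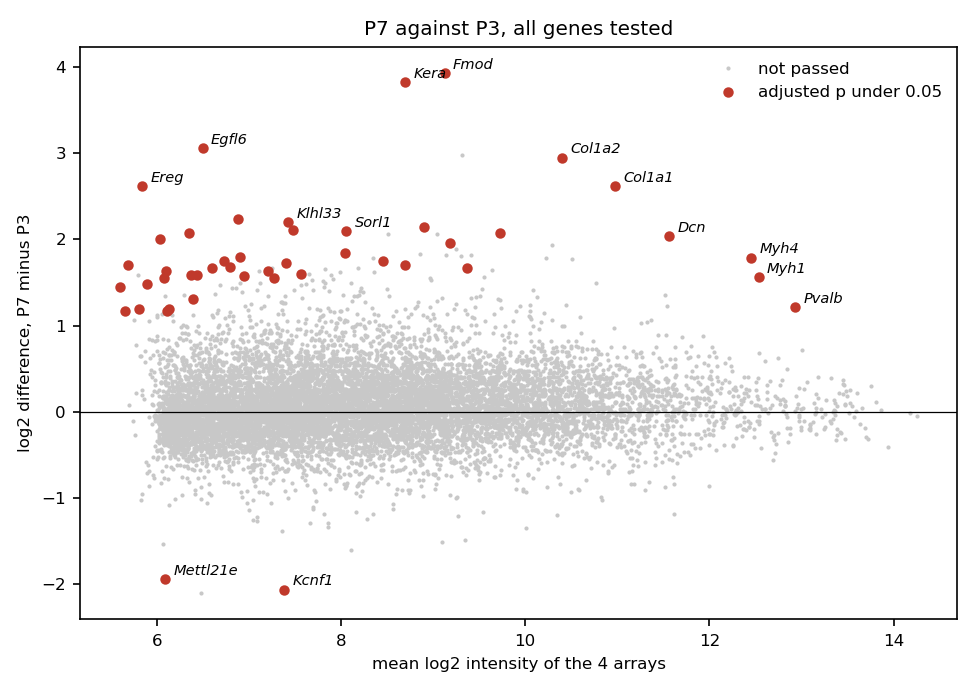
Log2 difference between P7 and P3 (vertical axis) against the mean log2 intensity of the 4 pup arrays (horizontal axis), 1 point per gene of 11281. Red points are the 46 genes that passed at an adjusted p under 0.05; Myh4, Myh1 and Pvalb pass at the high end of the intensity range, and most red points lie above the line at 0.

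The adult fast myosin heavy chains were the sharpest change within the contractile apparatus. Myh4, the heavy chain of the fastest (type 2B) fibers, stood at 11.43 and 11.68 on the P3 arrays and at 13.52 and 13.18 on the P7 arrays. The ages did not overlap, and Myh4 rose by 1.79 ± 0.21 (SE, n = 2 per age, adjusted p = 0.0172), a 3.46-fold change. Myh1, the heavy chain of type 2X fibers, stood at 11.64 and 11.87 at P3 and at 13.33 and 13.30 at P7. It rose by 1.56 ± 0.20 (adjusted p = 0.0172), or 2.95-fold, with both P7 arrays far above both P3 arrays. Myh2, of type 2A fibers, was higher on both P7 arrays (12.20 and 12.12 against 10.72 and 11.13), but its difference of 1.23 ± 0.25 did not pass (adjusted p = 0.0767). The heavy chains that precede them showed no such step. The neonatal Myh8 was at 13.56 and 13.50 at P3 and 12.99 and 13.43 at P7 (-0.32 ± 0.18), so it was still among the most intense signals at P7. The embryonic Myh3 (-0.42 ± 0.33) and the slow Myh7 (-0.11 ± 0.28) overlapped between the ages, and the extraocular Myh13 differed by 1.25 ± 0.35 (adjusted p = 0.217). Heavy chain genes are close paralogs, so signals of one may include RNA of another; cross-hybridisation of the probes was not tested.

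Because Myh4 and Myh1 neighbour each other on the chromosome and rose together, the 250 bases before their start sites are shown, from RefSeq (GRCm38.p6). The Myh4 window is chr11:67237562-67237811 and the Myh1 window chr11:67199852-67200101, both on the plus strand. Capitals mark E-boxes (CANNTG, the motif of MyoD-family factors) and the A/T-rich box TATTTATA, a form of the MEF2 motif, on either strand.
Myh4: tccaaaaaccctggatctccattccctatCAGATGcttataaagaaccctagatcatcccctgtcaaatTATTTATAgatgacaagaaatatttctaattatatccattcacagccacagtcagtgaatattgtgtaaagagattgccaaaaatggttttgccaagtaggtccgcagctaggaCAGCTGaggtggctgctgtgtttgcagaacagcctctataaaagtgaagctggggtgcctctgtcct
Myh1: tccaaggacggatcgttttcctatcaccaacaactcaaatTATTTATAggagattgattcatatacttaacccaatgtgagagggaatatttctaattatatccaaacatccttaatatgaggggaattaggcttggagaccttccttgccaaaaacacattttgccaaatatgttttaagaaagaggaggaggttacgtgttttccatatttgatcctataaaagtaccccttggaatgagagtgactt
TATTTATA was present in both windows, and in 85 of the 9007 windows matched to tested genes (0.944%). Among the 32 of 44 rising genes with a window, only Myh1 and Myh4 held it. Myh4 held 2 E-boxes, 1 of them CAGCTG, and Myh1 held 0, while 56.9% of the matched windows held at least 1 E-box and 12.1% held CAGCTG. Of the 13 windows of fast sarcomere genes 7 held CAGCTG. The motifs were chosen after the sequences were seen, and a match is a description of letters, not of a bound factor.

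**Figure D2:**
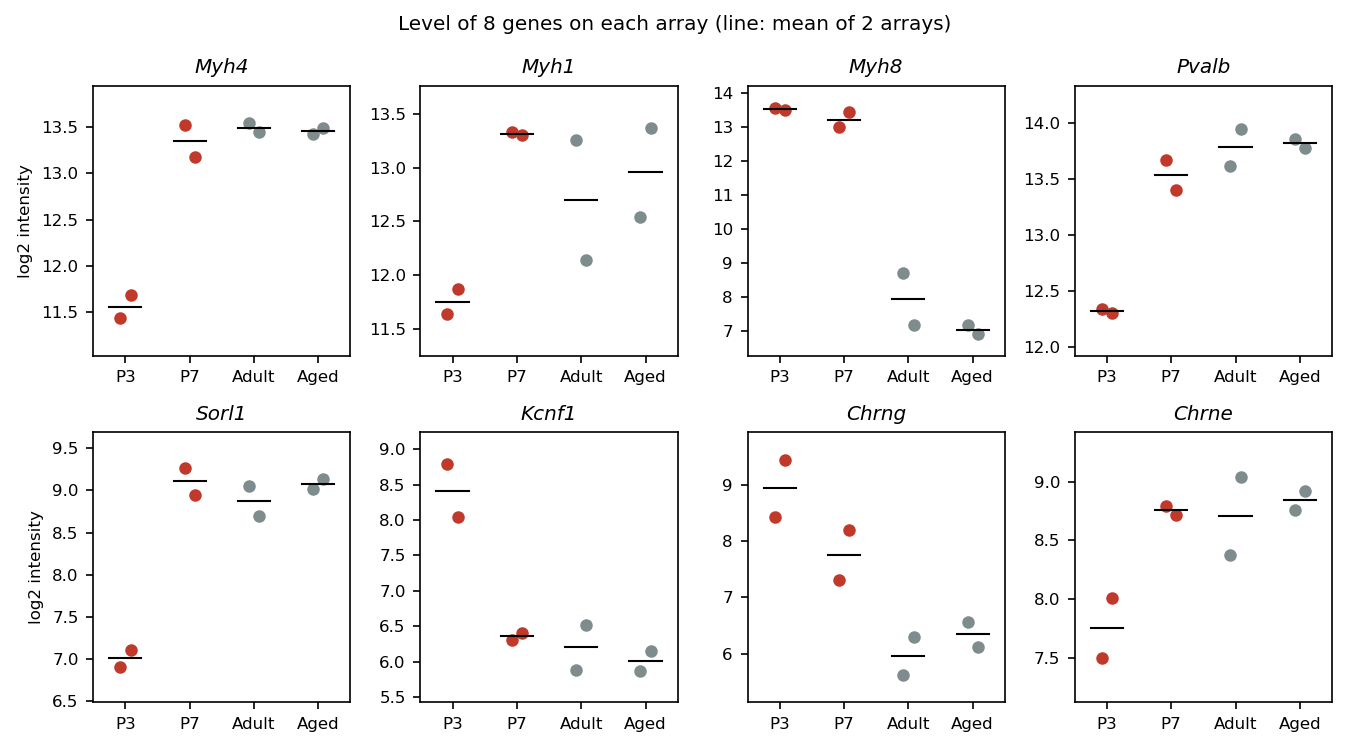
Level of 8 genes on each of the 8 arrays as log2 intensity; points are arrays, lines the mean of the 2 arrays of an age, red for pups and grey for adult and aged. Myh4, Myh1, Pvalb and Sorl1 step up from P3 to P7, Kcnf1 steps down, and Myh8 stays between 12.99 and 13.56 on the 4 pup arrays.

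Other genes of the fast sarcomere and its calcium handling were higher at P7 by smaller amounts. All 19 fast sarcomere genes tested were higher at P7 (16 with equal array medians), 3 of them rose, and their median difference was 0.30 against 0.04 over all genes (55.2% of all genes were higher). The ages did not overlap for 14 of the 19. The third gene that rose was Pvalb, which encodes parvalbumin, at 12.34 and 12.30 at P3 and 13.67 and 13.40 at P7. The Pvalb level rose by 1.22 ± 0.18 (adjusted p = 0.0233), or 2.32-fold, but without P7 replicate 1 the difference of 1.08 did not pass (adjusted p = 0.150). The fast myosin-binding protein Mybpc2 was at 11.02 and 10.67 at P3 and 12.47 and 11.93 at P7 (1.36 ± 0.27, adjusted p = 0.0751). Alpha-actinin 3 (Actn3), which anchors actin at the Z-disc of fast fibers, was at 12.72 and 12.58 against 13.36 and 13.38 (0.72 ± 0.17, adjusted p = 0.149). Neither passed, although the ages did not overlap for either gene. The regulatory light chain Mylpf was already high at P3 (12.98 to 13.29 on the 4 arrays, 0.10 ± 0.18). So was the fast troponin Tnnt3 (13.45 to 13.59, 0.10 ± 0.15), and both differed by less than their errors. Of the 19 genes, 7 were higher at an unadjusted p under 0.05 in limma, against 6.79% of all genes.

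Excitation-contraction coupling, by which a membrane impulse releases calcium from the sarcoplasmic reticulum, was represented by 26 genes, of which 20 were higher (17 with equal array medians), 1 rose (Pvalb) and none fell, with a median of 0.33. The calcium release channel Ryr1 was at 11.64 and 11.70 at P3 and 12.38 and 12.25 at P7 (0.65 ± 0.21, adjusted p = 0.330). Its voltage sensor Cacna1s differed by 0.54 ± 0.21, the reticulum calcium pump Atp2a1 by 0.30 ± 0.14 and the calcium store protein Casq1 by 0.39 ± 0.16, in each case without overlap of the ages and without passing. The small inhibitors of the calcium pump did not differ in 1 direction. Sarcolipin (Sln) was at 8.62 and 8.20 at P3 and 7.12 and 7.33 at P7 (-1.18 ± 0.29, adjusted p = 0.149), and myoregulin (Mrln) differed by -0.92 ± 0.35 (adjusted p = 0.436). Phospholamban (Pln) was at 5.19 and 6.91 against 6.25 and 6.33, overlapping, and differed by 0.24 ± 0.43.

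Slow and early sarcomere genes were mostly lower, and none passed. Of 14 slow sarcomere genes 10 were lower, with a median of -0.19 that became 0.04 without P7 replicate 1, -0.41 without P3 replicate 1 and -0.40 without P7 replicate 2. The slow light chain Myl2 was at 11.92 and 12.14 at P3 and 10.97 and 11.44 at P7 (-0.83 ± 0.25, adjusted p = 0.277), and the slow troponin Tnnc1 differed by -0.91 ± 0.31. The slow calsequestrin Casq2 (0.28 ± 0.27) overlapped between the ages. Of 9 embryonic and neonatal sarcomere genes 6 were lower (median -0.32, but -0.10 without P7 replicate 1 and -0.54 without P7 replicate 2), among them Tnnt2, the cardiac troponin T of immature muscle, at -0.42 ± 0.30.

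Membrane channels held 1 of the 2 genes that fell. Kcnf1, a potassium channel subunit that conducts only together with partner subunits, stood at 8.79 and 8.04 at P3 and at 6.30 and 6.41 at P7. Kcnf1 thus fell by 2.06 ± 0.30 (log2, adjusted p = 0.0233), the ages lying far apart. Kcnj2, the inward rectifier Kir2.1 that sets the resting potential, was at 6.30 and 6.77 at P3 and 8.44 and 8.09 at P7 and rose by 1.73 ± 0.28 (adjusted p = 0.0311), or 3.32-fold. Its relative Kcnj12, also an inward rectifier, differed by -0.44 ± 0.27 and did not pass. The chloride channel Clcn1, which dampens excitability in mature fibers, was at 8.43 and 9.14 at P3 and 9.88 and 9.35 at P7 (0.83 ± 0.35, adjusted p = 0.507). Of the 12 excitability genes tested 10 were higher (median 0.38), including the sodium pump subunit Atp1b2 (0.70 ± 0.26) and the potassium channel Kcnc4 (0.62 ± 0.29), which did not pass.

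The subunits of the acetylcholine receptor differed in opposite directions, and none passed. The fetal gamma subunit Chrng was at 8.44 and 9.45 at P3 and at 7.31 and 8.21 at P7, a difference of -1.18 ± 0.41 (adjusted p = 0.360). The adult epsilon subunit Chrne was at 7.50 and 8.01 at P3 and at 8.79 and 8.72 at P7, a difference of 1.00 ± 0.30 (adjusted p = 0.262). For both genes the ages did not overlap, but the replicates of each age lay far apart for Chrng. The delta subunit Chrnd differed by -0.96 ± 0.31 (adjusted p = 0.314), the neuronal-type Chrna9 by -1.10 ± 0.29 (adjusted p = 0.198), Chrna1 by -0.24 ± 0.29 and Chrnb1 by 0.38 ± 0.28. The windows before the start sites of the fetal and the adult subunit are set side by side below, because the pair is known to be exchanged after birth; Chrng lies at chr1:87205561-87205810 on the plus strand and Chrne at chr11:70619195-70619444 on the minus strand (RefSeq, GRCm38.p6), with capitals as above.
Chrng: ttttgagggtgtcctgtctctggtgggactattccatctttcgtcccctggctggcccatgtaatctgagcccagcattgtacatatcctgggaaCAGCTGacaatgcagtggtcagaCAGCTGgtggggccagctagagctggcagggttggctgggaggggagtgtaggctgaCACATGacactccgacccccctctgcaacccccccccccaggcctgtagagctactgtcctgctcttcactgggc
Chrne: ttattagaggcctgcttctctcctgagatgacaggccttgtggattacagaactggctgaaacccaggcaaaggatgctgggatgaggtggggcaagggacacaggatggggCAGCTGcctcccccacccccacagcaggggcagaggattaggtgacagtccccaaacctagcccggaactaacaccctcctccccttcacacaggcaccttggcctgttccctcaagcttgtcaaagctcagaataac
The Chrng window held 3 E-boxes, 2 of them CAGCTG, and the Chrne window held 1, also CAGCTG; neither held TATTTATA. Over the whole neuromuscular junction list, the proteins that gather receptors under the nerve ending, 7 of 20 genes were higher and 13 lower with a median of -0.10, which was 0.02 without P7 replicate 1, -0.28 without P7 replicate 2, -0.05 without P3 replicate 1 and -0.02 without P3 replicate 2.

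Genes that respond to loss of nerve contact were mostly lower, and none passed. Of 17 tested, 13 were lower, with a median of -0.32 that was -0.13 without P3 replicate 1. The myogenic factor Myog, which drives receptor genes in muscle without nerve input, was at 9.74 and 9.95 at P3 and 8.04 and 8.64 at P7 (-1.51 ± 0.32, adjusted p = 0.0931). Its relative Myod1 was at 12.61 and 12.25 against 11.37 and 11.76 (-0.86 ± 0.24, adjusted p = 0.221). The ages did not overlap for either factor. Against this direction stood Fbxo32, a ubiquitin ligase of muscle protein breakdown, at 8.55 and 9.65 against 10.22 and 10.23 (1.13 ± 0.37, adjusted p = 0.330). Among 20 genes of protein breakdown and autophagy 15 were higher (median 0.38). The remaining myogenic regulators held no such difference, as the fusion protein Mymk differed by -0.03 ± 0.30.

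Sorl1 had one of the clearest rises outside the sarcomere. It encodes a sorting receptor of the Vps10 family that routes cargo between the Golgi apparatus and endosomes. Sorl1 stood at 6.90 and 7.11 at P3 and at 9.27 and 8.95 at P7, and rose by 2.10 ± 0.29 (adjusted p = 0.0180), or 4.30-fold. The adult and aged arrays lay between 8.70 and 9.14, within reach of the P7 arrays. Of the 12 receptors of the Vps10 and LDL-receptor families and their partners 8 were higher (median 0.33, but 0.20 without P3 replicate 1 and 0.13 without P7 replicate 2) and only Sorl1 rose. Sortilin (Sort1), of the same family, was at 9.69 and 9.80 at P3 and 10.44 and 10.68 at P7 (0.82 ± 0.28, adjusted p = 0.366), and the endocytic receptor Lrp1 differed by 1.00 ± 0.31 (adjusted p = 0.291).

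Further genes that rose, gathered here from the genes that passed after their values were seen, belong to metabolism and signalling. Klhl33, a kelch-repeat protein, was at 5.92 and 6.75 at P3 and 8.76 and 8.31 at P7 and rose by 2.20 ± 0.33 (adjusted p = 0.0233). Map2k6, a kinase that activates p38, was at 6.73 and 6.80 against 8.48 and 8.26 and rose by 1.60 ± 0.26 (adjusted p = 0.0311). Ddit4l, an inhibitor of mTOR signalling, was at 8.42 and 8.63 against 10.22 and 10.18 and rose by 1.67 ± 0.29 (adjusted p = 0.0432). In each of these 3 genes the ages were well apart, although the Ddit4l call was lost when either P7 array was left out. Aldh1a1, which makes retinoic acid, rose from a low level (5.35 and 4.95 against 6.79 and 6.47, 1.48 ± 0.22), as did the mitochondrial carrier Slc25a35 (1.17 ± 0.18). Both lay above the array median on the P7 arrays only, so the filter partly set their direction. The glutathione transferase Gstk1 rose by 1.70 ± 0.29, a call lost without P7 replicate 1. Mettl21e, a muscle protein methyltransferase, was the second gene that fell: it stood at 7.20 and 6.94 at P3 and 4.75 and 5.50 at P7, and fell by 1.94 ± 0.26 (log2, adjusted p = 0.0180).

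Glycolytic genes were higher as a list while respiratory genes were not. Of 24 genes of glycolysis and glycogen 22 were higher, none passed, and the median was 0.33. Gpd1, which links glycolysis to the glycerol phosphate shuttle, was at 10.76 and 10.85 at P3 and 11.77 and 11.92 at P7 (1.04 ± 0.24, adjusted p = 0.131), and Phkg1, the catalytic subunit of phosphorylase kinase, differed by 0.96 ± 0.29. Glycogen phosphorylase Pygm differed by 0.41 ± 0.17 and phosphofructokinase Pfkm by 0.48 ± 0.20, both without overlap. Fbp2, which runs the pathway in reverse, was at 11.18 and 11.32 against 10.45 and 10.62 (-0.71 ± 0.26, adjusted p = 0.406). Of 24 oxidative phosphorylation genes 13 were higher, with a median of 0.01 that turned to -0.02, -0.08 and -0.01 under cyclic loess, equal array medians and equal housekeeping means. Fatty acid oxidation had 6 of 21 genes higher (median -0.10) and cytosolic ribosome genes 1 of 19 (0 under each of the 3 other scalings, median -0.19, or -0.03 without P3 replicate 2), with 0 that passed in limma in these 4 lists (unadjusted p under 0.05: 7 higher and 1 lower, all in glycolysis and glycogen).

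Among the transcription factors of fiber type 19 of 23 were higher (median 0.27, with 14 to 16 higher under the other scalings) and none passed. Eya1, a transcriptional cofactor of fast fibers, was at 9.22 and 9.78 at P3 and 10.70 and 10.51 at P7 (1.10 ± 0.31, adjusted p = 0.221). The large Maf factors of fast fibers Maf (1.01 ± 0.32) and Mafa (0.69 ± 0.32), together with Sox6 (0.43 ± 0.29), a repressor of slow genes, were higher on both P7 arrays. The cofactor Vgll2 differed by 0.01 ± 0.36. Clock genes had 15 of 17 higher (median 0.33), with the clock repressor Bhlhe40 at 9.66 and 9.99 at P3 and 11.44 and 10.69 at P7 (1.24 ± 0.32, adjusted p = 0.190) and the clock output factor Dbp at 0.89 ± 0.29. Immediate early genes had 18 of 22 higher (median 0.40, but 0.09 without P7 replicate 1 and 0.12 without P3 replicate 1), and none passed in either list. The mitochondrial coactivator Ppargc1a was at 10.86 and 10.96 against 12.01 and 11.17 (0.68 ± 0.30, adjusted p = 0.548).

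**Figure D3:**
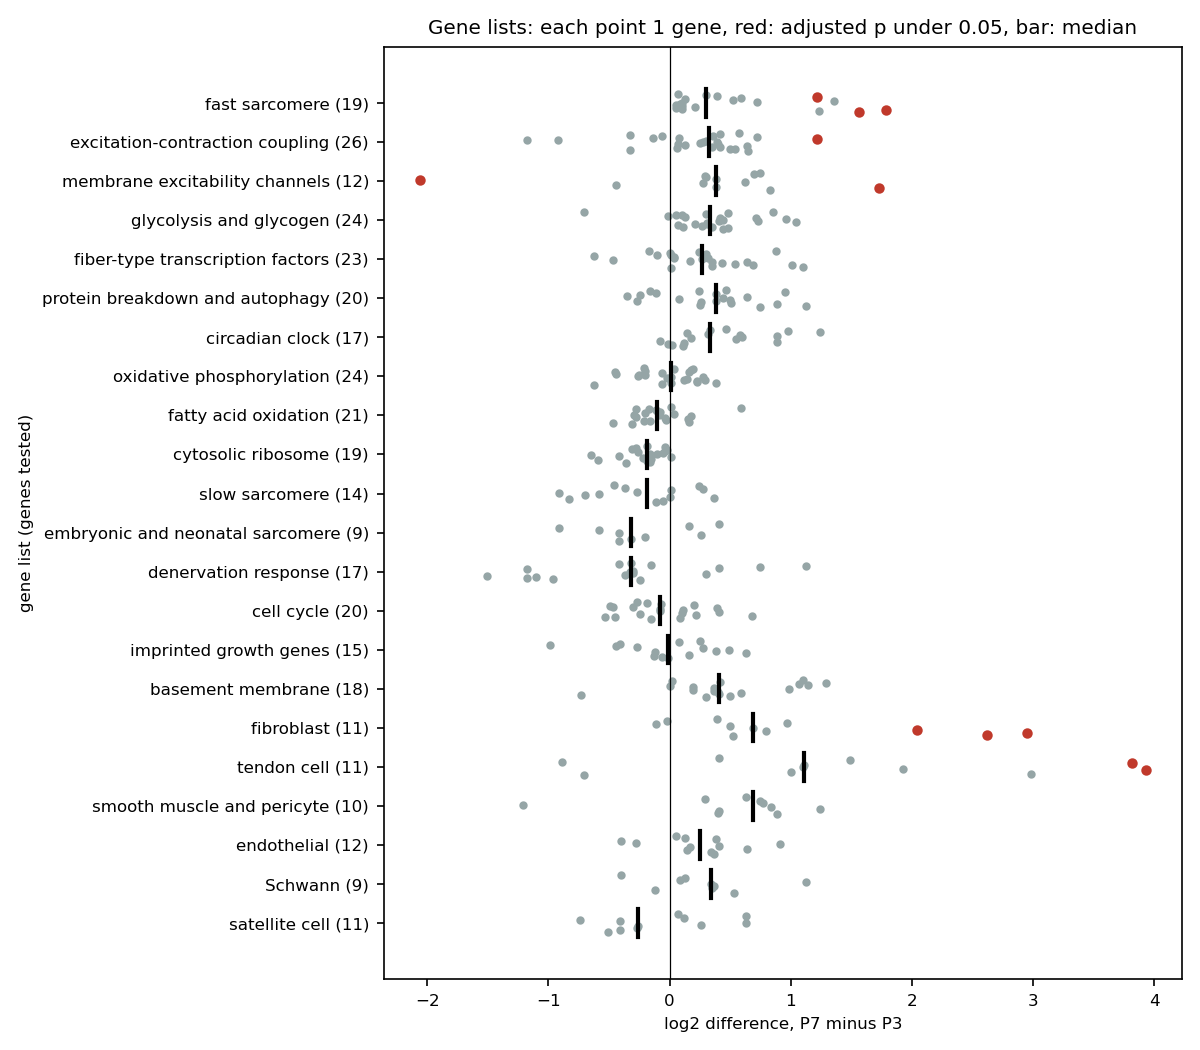
Log2 difference between P7 and P3 (horizontal axis) of each gene in 22 lists (vertical axis, number of genes tested in parentheses); each point is a gene, red marks an adjusted p under 0.05, and the black bar is the list's median. Fast sarcomere medians lie at 0.30 and glycolysis and glycogen at 0.33, and the red points gather in the fast sarcomere, channel, fibroblast and tendon cell lists.

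Imprinted growth genes known to be high around birth were split, and none passed. Of 15 tested 7 were higher and 8 lower, with both P7 arrays above both P3 arrays for 5 and below them for 4. The growth factor Igf2 was at 13.37 to 13.66 (-0.01 ± 0.17) and the imprinted surface protein Dlk1 at 12.73 to 13.16 (-0.06 ± 0.20). Both overlapped between the ages. The retrotransposon-derived Peg10 was at 11.34 and 11.29 at P3 and 10.09 and 10.57 at P7 (-0.99 ± 0.28, adjusted p = 0.221), and Mest differed by 0.63 ± 0.27. The growth factor Igf1 was at 6.99 and 7.61 at P3 and 8.54 and 8.40 at P7 (1.17 ± 0.30, adjusted p = 0.186). The growth inhibitor myostatin (Mstn) was at 9.94 and 9.80 at P3 and 11.10 and 9.43 at P7, overlapping, with a difference of 0.39 ± 0.46. Proliferation genes were split, with 8 of 20 cell cycle genes higher, and the proliferation antigen Mki67 differed by -0.15 ± 0.30.

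Genes of the extracellular matrix, gathered here from the genes that passed after their values were seen, had the 4 largest rises in size (Fmod, Kera, Egfl6 and Col1a2). Col1a2, which with Col1a1 forms type I collagen, stood at 8.69 and 9.15 at P3 and at 12.15 and 11.60 at P7 and rose by 2.95 ± 0.31 (adjusted p = 0.0172), or 7.74-fold. Col1a1 was at 9.11 and 10.22 against 12.41 and 12.16 and rose by 2.62 ± 0.35 (adjusted p = 0.0180). The small proteoglycan Dcn, which binds collagen fibrils, was at 10.38 and 10.71 against 12.76 and 12.41 and rose by 2.04 ± 0.25 (adjusted p = 0.0172). All 3 are fibroblast markers, and their ages lay more than 1 unit apart. Fmod, a collagen-binding proteoglycan of tendon, was at 5.92 and 8.41 at P3 and 11.42 and 10.76 at P7 and had the largest rise of all (3.93 ± 0.63, adjusted p = 0.0311). Kera, keratocan of tendon and cornea, was at 6.11 and 7.47 against 11.50 and 9.70 and rose by 3.82 ± 0.57 (adjusted p = 0.0233). Replicates differed widely for both, by more than 1 unit within P3. Other matrix genes that rose were Egfl6 (3.06 ± 0.46), the collagen-degrading protease Mmp2 (2.08 ± 0.33, a call lost without P7 replicate 2), the microfibril protein Mfap4 (2.14 ± 0.31), the cartilage-layer protein Cilp (2.11 ± 0.32) and the carboxypeptidase-like Cpxm2 (2.24 ± 0.26). The cartilage proteoglycan aggrecan (Acan, 1.70 ± 0.21) and the growth factor Ereg (2.62 ± 0.34) rose from near the lower end of the intensity range. Egfl6, Cpxm2, Acan and Ereg lay above the array median on the P7 arrays only, so the filter partly set their direction. The rising genes whose differences are not given here rose by 1.17 to 2.07.

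Listed markers of fibroblasts and tendon cells, which make such matrix, were mostly higher at P7. The markers that rose are matrix genes already given above: Col1a1, Col1a2 and Dcn for fibroblasts, and Fmod and Kera for tendon cells. The sums below include these genes and so repeat their rises in part. Of 11 fibroblast markers tested 9 were higher and 3 rose (median 0.69), and their summed intensity was 5452 and 7086 on the P3 arrays and 22173 and 18989 on the P7 arrays. The fibroblast surface receptor Pdgfra differed by 0.52 ± 0.34, while Pi16 (4.99 to 5.61) and Clec3b (5.36 to 5.85) lay below the array medians on all 4 arrays. Of 11 tendon cell markers 9 were higher and 2 rose (median 1.11, or 0.73 without P7 replicate 1), with a sum of 4802 and 3991 at P3 and 15499 and 6994 at P7. Tendon markers were uneven: tenomodulin (Tnmd) was at 7.38 and 8.27 against 11.80 and 9.81 (2.98 ± 0.56, adjusted p = 0.0575), whereas the tendon factor Scx was lower (-0.71 ± 0.36) and Tnc differed by -0.89 ± 0.39. Chondrocyte markers were split: of 12 listed 5 were tested, 3 of them higher and 2 lower, and 1 rose (Acan). Their median was 0.10, but -0.14 without P7 replicate 1. Summed muscle fiber markers were 98553 and 100822 at P3 and 126927 and 120851 at P7. In arrays of bulk RNA, more cells of a type and more RNA per cell cannot be told apart. The part of connective tissue cells in the rises of the matrix genes was not tested.

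**Figure D4:**
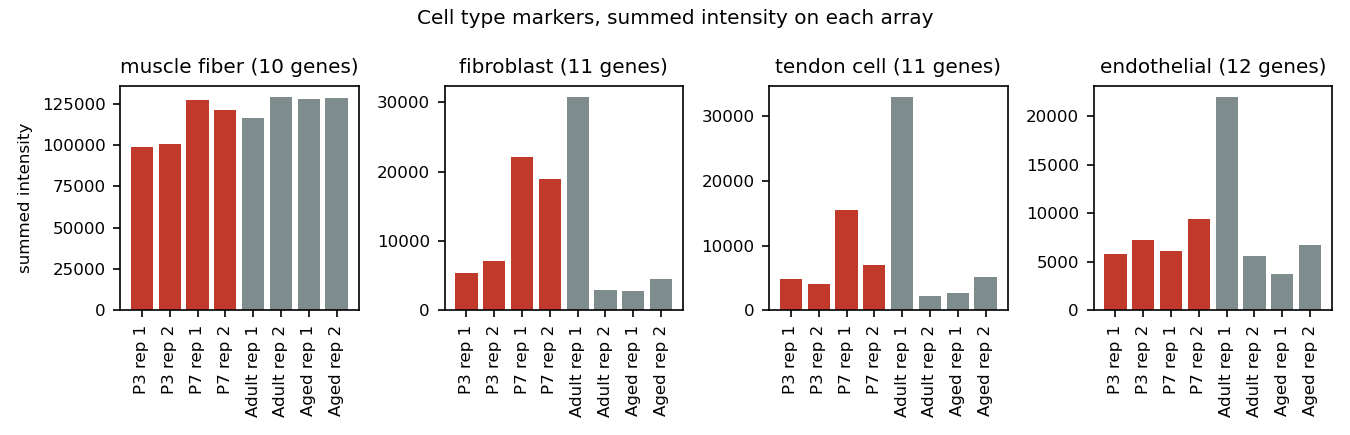
Summed intensity of the markers of 4 cell types (bars, 1 per array; number of genes in parentheses; vertical axes start at 0), red for pups and grey for adult and aged. Fibroblast and tendon cell sums are higher on both P7 arrays than on both P3 arrays, and highest on Adult replicate 1.

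Listed markers of vessels, Schwann cells, satellite cells and leukocytes were measured as well, and none passed. Of 12 endothelial markers 10 were higher (median 0.26, which became -0.01 when P7 replicate 2 was left out and 0.54 when P7 replicate 1 was), and their sums overlapped between the ages (5784 and 7268 at P3, 6057 and 9395 at P7). Smooth muscle and pericyte markers had 9 of 10 higher (median 0.69, the same as for fibroblasts, but 0.27 without P7 replicate 2), with sums of 6999 and 6848 against 10793 and 11160, among them smooth muscle actin Acta2 (0.89 ± 0.24, adjusted p = 0.198) and Rgs5 (1.24 ± 0.29, adjusted p = 0.132). The pericyte proteoglycan Cspg4 ran against them, at 9.83 and 9.93 at P3 and 8.39 and 8.96 at P7 (-1.21 ± 0.32, adjusted p = 0.190). Schwann cells, the glia of motor axons, had 7 of 9 markers higher and none that passed (median 0.34, but 0.04 without P7 replicate 2, 0.10 without P3 replicate 1, 0.52 without P7 replicate 1 and 0.58 without P3 replicate 2; sums of 7320 and 6115 against 8572 and 8817). Among the rising genes, chosen here after their values were seen, the glial lipid-binding protein Pmp2 was at 4.59 and 5.49 at P3 and 6.83 and 7.26 at P7 (2.01 ± 0.29, adjusted p = 0.0233). The glial gap junction protein Gjc3 was at 6.31 and 6.48 against 8.04 and 8.01 (1.63 ± 0.25, adjusted p = 0.0233), while the Schwann marker S100b lay at 4.95 to 5.67, below the array medians. The part of glial cells in these 2 rises was not tested. Pmp2 lay above the array median on the P7 arrays only, so the filter partly set its direction. Satellite cells, the muscle stem cells, had 5 of 11 markers higher, and their factor Pax7 was at 7.32 and 7.78 against 6.74 and 7.33 (-0.51 ± 0.30). The leukocyte antigen Ptprc stayed between 4.27 and 4.54 on the pup arrays, and only 3 of 13 macrophage and leukocyte markers passed the filter. All 3 were higher at P7 (median 0.64, but 0.30 without P3 replicate 1). Mrc1 was at 6.80 and 6.86 at P3 and 8.99 and 7.61 at P7 (1.47 ± 0.40, adjusted p = 0.201). Cd68 (0.64 ± 0.39) and C1qb (0.41 ± 0.26) overlapped between the ages. The basement membrane list, shared by many of these cells, had 16 of 18 higher (median 0.40, but 0.12 without P7 replicate 2, 0.80 without P7 replicate 1 and 0.61 without P3 replicate 2), with the 3 genes of type VI collagen at 1.14 ± 0.29 (Col6a1), 1.07 ± 0.30 (Col6a2) and 1.29 ± 0.32 (Col6a3), none of which passed.

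The adult and aged arrays placed the 44 rising genes in different later positions. These positions were compared after the values had been seen and carry no test. On all 3 of Adult replicate 2 and the Aged arrays, 15 genes lay at or above the midpoint between their P3 and P7 means, among them Myh4 (13.43 to 13.49), Pvalb (13.78 to 13.95), Sorl1, Kcnj2, Klhl33, Map2k6, Ddit4l, Gstk1, Aldh1a1 and Slc25a35. Aldh1a1 and Gstk1 went on to far higher levels, Aldh1a1 at 10.17 to 11.20 and Gstk1 at 11.33 to 11.68 on these 3 arrays. For 23 genes none of the 3 arrays reached the midpoint, and these included Col1a1, Col1a2, Dcn, Kera, Egfl6, Mfap4, Mmp2, Acan and Ereg. Col1a2, for example, was at 6.68 to 7.33, below both P3 arrays. The other 6, such as Myh1 and Fmod, were split. Adult replicate 1 stood apart, since it reached the midpoint for 41 of the 44 and exceeded the other 3 older arrays for 21 of the 23 genes, and its fibroblast sum was 30799 against 2767 to 4563 on those arrays. Kcnf1, which fell, stayed low at 5.87 to 6.52 on the 4 older arrays, whereas Mettl21e lay between 5.62 and 6.60, above its P7 values of 4.75 and 5.50.

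**Figure D5:**
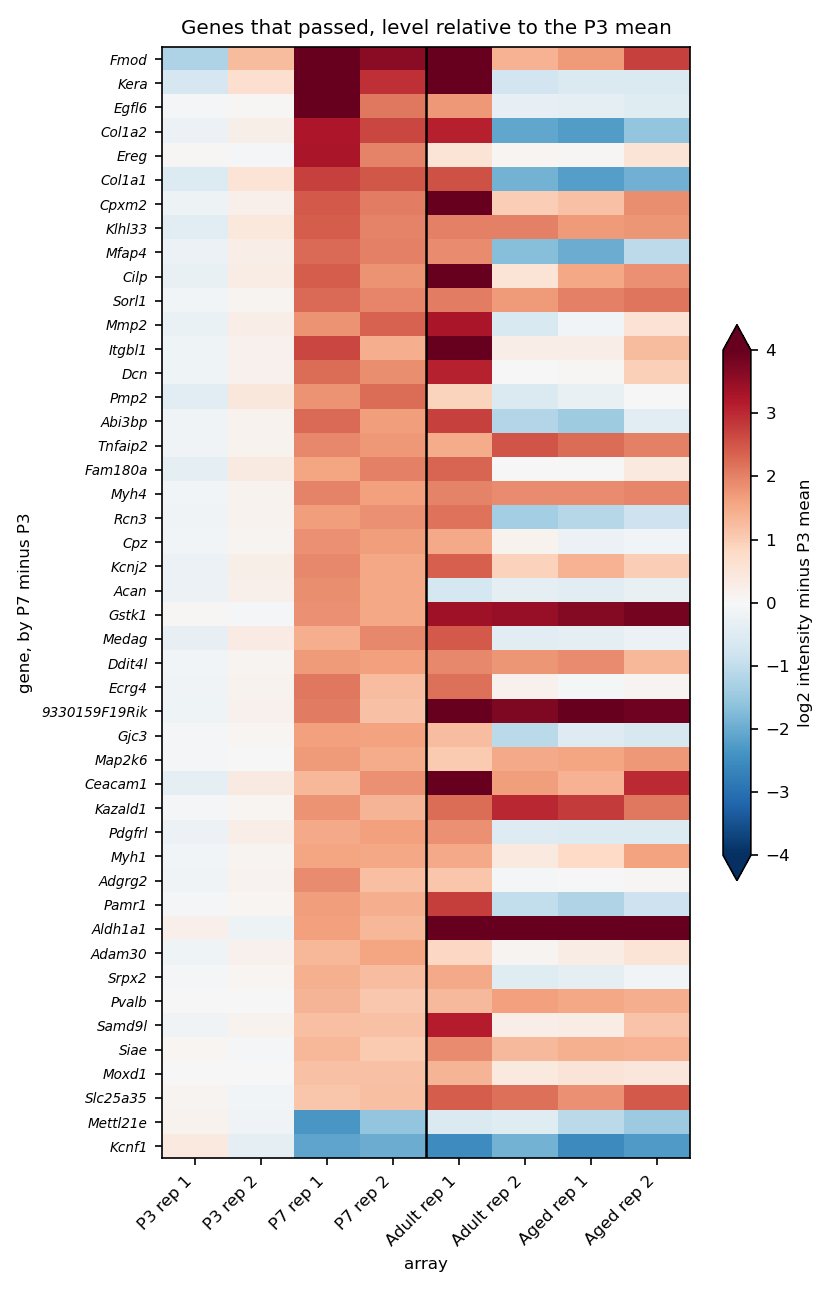
Level of the 46 genes that passed on each of the 8 arrays, as log2 intensity minus the gene's P3 mean (colour, clipped at -4 and 4); rows are genes ordered by P7 minus P3, columns are arrays, and the black line separates pups from older mice. Matrix genes such as Col1a2 and Mfap4 are blue on Adult replicate 2 and both Aged arrays, whereas Myh4, Sorl1 and Pvalb remain red there.

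Genes with the next strongest evidence for a lower level at P7 did not pass. The RNA-binding protein Igf2bp1, a factor of fetal tissues, was at 6.74 and 6.92 at P3 and 4.83 and 5.77 at P7 (-1.53 ± 0.29, adjusted p = 0.0575). Tmeff1, a membrane protein with follistatin domains, was at 9.28 and 8.54 against 7.17 and 7.46 (-1.60 ± 0.32, adjusted p = 0.0821). Tex16 had the largest negative difference of all (-2.10 ± 0.43, adjusted p = 0.0838), with its P3 arrays at 8.38 and 6.68. Rin1, a Ras effector, differed by -1.25 ± 0.26, Enox1 by -1.08 ± 0.22, the neuropeptide galanin (Gal) by -0.96 ± 0.22 and Tmem125 by -0.95 ± 0.20. In all 7 genes both P7 arrays lay below both P3 arrays, as did 15.6% of all genes. Igf2bp1, Tex16, Enox1 and Tmem125 lay above the array median on the P3 arrays only, so their direction was partly set by the filter.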

How the data were processed

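Transcript levels were measured on whole-transcript mouse gene arrays. The authors deposited intensities on a linear scale, which per the submitters' processing notes came from RMA (background correction, quantile normalisation between arrays, summary of probes); version and the step back from log2 are not given in the sources used here. The intensities ran from 3.72 to 24410 on the 4 pup arrays. Because log2 values had been one possibility, the scale was checked first, and log2 of the deposited intensity was taken for all that follows.

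Of 34760 probe sets, 21640 named 1 gene symbol, 1321 several and 11799 none. Gene identifiers of 21553 matched the reference table. A probe set with 1 symbol was kept when above the array median on at least 2 of the 4 arrays (12352), and the one with the highest mean stood for a gene (626 genes had several), leaving 11281 genes. The test was limma's (version 3.58.1, R 4.3.3), with 1 mean per age, eBayes with trend, two-sided p and Benjamini-Hochberg adjustment over all genes. The 2 arrays per age left 2 residual degrees of freedom, eBayes added a median of 8.49, and the median standard error was 0.29. The number of arrays limits the precision. Scan dates were not used here, so no batch was examined. Motifs were searched as letters on both strands. Tables were made with pandas 2.3.3 and NumPy 2.4.6 (Python 3.11.15), figures with matplotlib 3.10.9.

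Members, gene lists and alternatives were chosen with earlier results of these data known. Genes are named when among the 12 largest rises or falls that passed without overlap of the ages, when among the 8 strongest that did not pass in a direction with fewer than 12, when of smallest p in a list, or when in a set of 48, of which H19, Scn4a and Dio2 were not among the genes tested and 1 more gene is not reported here. Some further genes were picked from those that passed after their values were seen, among them Map2k6, Ddit4l, Gstk1, Aldh1a1, Slc25a35, Pmp2 and Gjc3. Lists are described by counts and medians, without a test. The alternatives were 3 scalings, 2 filters, another choice of probe set, an offset of 16, 2 priors, all 8 arrays, a replicate block and leaving out each array.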

Additional observations from a re-analysis of the deposited data

How the results depend on the processing

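Against 46 genes called (44 higher, 2 lower), cyclic loess gave 26 (24 higher), equal array medians 0 in limma (0 higher and 0 lower, with 981 genes at an unadjusted p under 0.05), equal housekeeping means 12 (10 higher), no filter 29 (25 higher, 4 lower), the filter on all 4 arrays 26 (25 higher, 1 lower), no mean-variance trend 1 (1 higher, 0 lower) and all 8 arrays 0 (0 higher, 0 lower). The causes were not tested, except that the stricter filter left only 19 of the 46 genes in the test, all of which still passed. The mean of a gene's probe sets, the offset and robust eBayes stayed within 1.5 times of each count. Without each array in turn the counts ran from 62 to 331 called, 58 to 267 higher and 4 to 64 lower; the lone array of an age is then assumed to vary like the other age, with 1 residual degree of freedom. Of the 46 genes, 41 passed without P7 replicate 1 (not Abi3bp, Ddit4l, Gstk1, Pvalb and Siae), 44 without P7 replicate 2 (not Ddit4l and Mmp2) and 46 without either P3 array.

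The labels do not say that replicate numbers pair the arrays, and only 2 pairs exist. Deviations of same-numbered arrays correlated with r = 0.390 across genes. A replicate block in the fit gave 337 genes (285 higher, 52 lower), the 46 among them.

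Among the genes whose differences are given, Vgll2 turned to -0.03, -0.08 and -0.01 under cyclic loess, equal array medians and equal housekeeping means (the cause was not tested). Leaving out 1 array at a time turned the log2 difference of some of these genes, none of which had passed: Casq2 ran from -0.08 to 0.63, Dlk1 from -0.28 to 0.15, Igf2 from -0.15 to 0.14, Mki67 from -0.42 to 0.12, Mstn from -0.44 to 1.23, Myh7 from -0.48 to 0.25, Mylpf from -0.02 to 0.21, Mymk from -0.33 to 0.27, Pln from -0.62 to 1.10 and Vgll2 from -0.50 to 0.53.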
